A study of Mus musculus with 13 samples.

Results

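The core pluripotency factors examined here are Pou5f1, Sox2, Nanog, Sall4 and Lin28a. They were taken by gene symbol from the deposited count table, and all 5 were found among its 24470 genes. Their mRNA was read in 5 libraries, and the open chromatin in each gene and 50 kb either side was read in 8 peak lists, which merged into 107 open regions at the 5 loci of 107851 in the genome. The window of 50 kb takes in upstream enhancers as well as the promoter.

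Embryonic stem cells keep the ability to form every tissue of the embryo through a small circuit of transcription factors. Pou5f1 encodes OCT4, a POU-domain protein that binds the octamer sequence, and SOX2, an HMG-box protein, binds beside it on many of the same enhancers. NANOG is a homeodomain protein that sustains self-renewal, SALL4 is a zinc-finger partner of OCT4 and of the NuRD chromatin remodelling complex, and LIN28A is an RNA-binding protein that blocks maturation of the let-7 microRNAs. OCT4, SOX2 and NANOG bind regulatory elements of their own genes, among them distal enhancers upstream of Pou5f1 and Nanog and elements on both sides of Sox2.

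All libraries came from E14, a mouse embryonic stem cell line of 129/Ola background with no engineered allele named in the labels, cultured in serum with leukemia inhibitory factor (LIF) and given no other treatment. In the low-input protocol the transposase Tn5 cut open chromatin in permeabilised cells and oligo-dT beads then drew mRNA from the same lysate, so each ATAC library has an mRNA library from the same cells. Experiment 1 used 10000 and 20000 cells and experiment 2, on another day, used 5000, 10000 and 20000 cells, with 1 library of each kind per cell number and experiment. Omni-ATAC, an established ATAC protocol that gave no mRNA here, was run once each with 5000, 10000 and 50000 cells. One cell line was used throughout, and nothing in the labels says that libraries of 1 experiment came from separate cultures, so p-values measure the spread between these libraries, which may be technical.

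The mRNA libraries held 13727122 to 20426252 counts. The ATAC lists held 9097 to 95457 peaks and give intervals alone, with no height or score, so the depth behind a peak is unknown. The shortest peaks were 9 bp wide and made up 24.4% to 59.2% of a list. Markers of other cell types were summed in each mRNA library. The sum ran from 1.81 to 7.28 CPM (the count scaled to the library's total) for 6 primitive endoderm markers. For 8 neural and mesendoderm markers it ran from 4.81 to 16.6 CPM. For 6 trophoblast markers it ran from 25.2 to 31.2 CPM, most of it from the keratins Krt8 and Krt18, with means of 18.1 and 8.44 CPM. The means of Eomes, Cdx2, Hand1 and Elf5 were 1.33, 0.235, 0.144 and 0.119 CPM. The sum was 30.6 to 41.2 CPM for 5 formative and primed epiblast markers, of which Dnmt3b gave most. The 8 fibroblast markers summed to 172 to 211 CPM, most of it from Fn1 and with Thy1 at a mean of 17.3 CPM, while the collagen Col3a1 and the stromal gene Lum were at a count of 0 in all 5 libraries, which allows up to 0.219 CPM in the shallowest.

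The promoters of Sox2, Nanog and Pou5f1 are shown because peaks covered them to very different degrees. They are printed 5′ to 3′ on the strand of the gene, from position -250 to -1 before the start site, from RefSeq on GRCm38.p6, the same assembly as mm10, and 4 of the 5 members had an entry. Capitals mark every match, on either strand, to the octamer core ATGCAAA, to the SOX letters ACAATG or ACAAAG, or to the KLF/SP letters GGGCGG.
Sox2, plus strand, chr3:34649745-34649994: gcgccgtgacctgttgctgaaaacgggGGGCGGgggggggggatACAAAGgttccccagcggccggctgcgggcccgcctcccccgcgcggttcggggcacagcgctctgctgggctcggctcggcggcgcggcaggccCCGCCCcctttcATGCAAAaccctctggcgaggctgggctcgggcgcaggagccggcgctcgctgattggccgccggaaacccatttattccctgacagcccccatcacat
Nanog, plus strand, chr6:122707239-122707488: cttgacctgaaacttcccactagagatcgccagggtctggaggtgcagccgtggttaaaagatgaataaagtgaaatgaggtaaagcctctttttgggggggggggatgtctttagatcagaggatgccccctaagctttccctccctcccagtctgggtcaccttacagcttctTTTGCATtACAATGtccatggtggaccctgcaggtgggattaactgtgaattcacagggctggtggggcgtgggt
Pou5f1, plus strand, chr17:35505782-35506031: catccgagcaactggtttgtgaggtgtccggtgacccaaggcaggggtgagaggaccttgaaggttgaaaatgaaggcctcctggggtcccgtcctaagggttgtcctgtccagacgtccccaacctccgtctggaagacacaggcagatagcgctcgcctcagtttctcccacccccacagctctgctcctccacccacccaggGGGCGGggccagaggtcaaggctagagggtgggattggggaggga

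In the Nanog promoter an octamer core, read on the opposite strand as TTTGCAT, began at position -75, and the SOX letters ACAATG began at -67, with 1 base between them. This arrangement was looked for after the sequence had been seen. It occurred in 2 of 32851 RefSeq promoter windows of the mouse, each from 250 bases before to 50 after a start (0.00609%), and both are overlapping windows of Nanog. Taken alone, the octamer core was in 4.63% of the windows, ACAATG in 12.6%, ACAAAG in 18.7% and GGGCGG in 35.7%. The Sox2 promoter held an octamer core at -99, GGGCGG matches at -223 and -111 and ACAAAG at -206. The Pou5f1 promoter held 1 GGGCGG match, at -45. A second RefSeq window of Pou5f1, not printed, has its start at chr17:35508807 inside the gene. It held ACAATG at -158, which no list covered with a peak. The Lin28a promoter held ACAATG at -96 and GGGCGG 32 bases after the start. The complete octamer ATGCAAAT, present in 1.74% of the windows, was in none of the members' windows. A match is a description of letters, and their absence from a window says nothing of the factors.

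All 5 core factors were expressed in every library, and Nanog, Sall4 and Sox2 varied less than most genes did. Nanog, at 227 ± 15.8 CPM (SD, n = 5), and Sall4, at 44.0 ± 3.23 CPM, were steady between libraries: the SD of their log2(CPM + 1) was smaller than that of most genes, at percentile 8.73 and 10.4 of the 6485 genes that averaged 10 CPM or more, called expressed genes here. Sox2 was at 159 ± 17.3 CPM, at percentile 29.3. Pou5f1, at 195 ± 39.9 CPM, was the most variable of the 5 on the log scale, at percentile 77.7, and Lin28a, at 10.7 ± 2.22 CPM, followed at percentile 71.1. The table gives no transcript lengths, so the levels of different genes were not put in an order. In bulk libraries, fewer cells expressing a gene and less RNA per cell cannot be told apart.

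**Figure D1:**
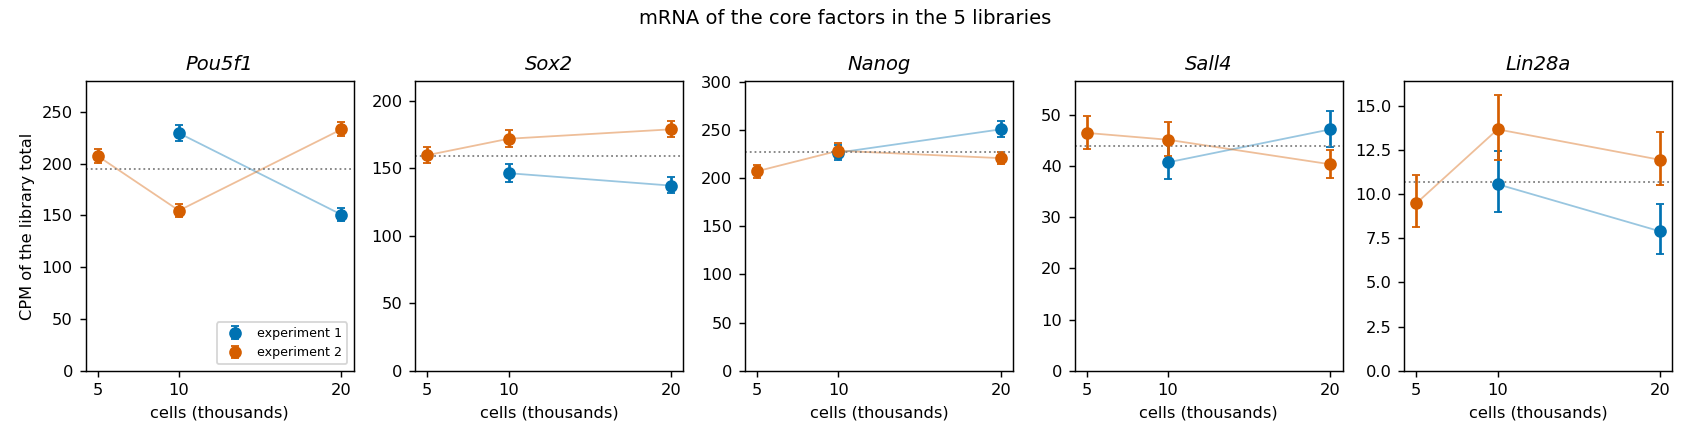
CPM of each core factor (vertical axis, its own scale per gene) against the number of cells (horizontal axis) in the 5 mRNA libraries. Points are single libraries, bars their 95% Wilson intervals for counting error, and dotted lines the mean over 5 libraries; the lines of the 2 experiments cross for Pou5f1, between 151 and 233 CPM, and stay apart for Sox2.

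Pou5f1 (gene ID 18999, plus strand, chr17:35506032-35510777, mm10) encodes the POU factor that the inner cells of the blastocyst need to be pluripotent. It was measured in experiment 1 at 230 CPM with 10000 cells and at 151 CPM with 20000 cells. In experiment 2 it was measured at 207, 155 and 233 CPM with 5000, 10000 and 20000 cells. The high and the low libraries thus came from opposite cell numbers in the 2 experiments, and the groups overlapped whichever way they were drawn. The 95% Wilson interval of the lowest library ran from 145 to 157 CPM and that of the highest from 227 to 240 CPM. These intervals cover counting error only, because the reads carry no molecular identifiers and can be copies of 1 molecule. Pou5f1 has near-identical copies in the mouse genome, and how reads that match several places were counted is not given in the sources used here; the 1 other row whose symbol starts with Pou5f1, Pou5f1-rs4, had at most 7 counts in a library against 4764 at most for Pou5f1.

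Sox2 (gene ID 20674, plus strand, chr3:34649995-34652461), whose protein pairs with OCT4 on DNA, was measured in experiment 1 at 146 CPM with 10000 cells and at 137 CPM with 20000 cells. In experiment 2 it was at 160, 172 and 179 CPM with 5000, 10000 and 20000 cells. All 3 libraries of experiment 2 stood above both libraries of experiment 1. Sox2 lies inside the long noncoding gene Sox2ot on the same strand, and the table gave Sox2ot 0.0597 to 1.31 CPM.

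Nanog (gene ID 71950, plus strand, chr6:122707489-122714633), the homeodomain factor, was at 227 and 251 CPM with 10000 and 20000 cells of experiment 1. In experiment 2 it stood at 207, 228 and 221 CPM with 5000, 10000 and 20000 cells. The highest library was 1.21 times the lowest.

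Sall4 (gene ID 99377, minus strand, chr2:168748332-168767201), the zinc-finger partner of OCT4, was at 40.7 and 47.2 CPM with 10000 and 20000 cells of experiment 1. The libraries of experiment 2 gave 46.5, 45.1 and 40.3 CPM with 5000, 10000 and 20000 cells. The highest library was 1.17 times the lowest, the narrowest range of the 5 genes.

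Lin28a (gene ID 83557, minus strand, chr4:134003330-134018816), the let-7 antagonist, was at 10.6 and 7.90 CPM with 10000 and 20000 cells of experiment 1. The libraries of experiment 2 gave 9.49, 13.7 and 11.9 CPM with 5000, 10000 and 20000 cells. The highest library was 1.73 times the lowest, the widest range of the 5, on 118 to 244 counts. Its interval was 6.59 to 9.45 CPM in the lowest library and 12.0 to 15.6 CPM in the highest.

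The comparison of 20000 with 10000 cells asks whether the amount of input changed the measured levels. None of the 5 core factors passed the test, and none of the 12523 genes tested was called (0%) by edgeR's quasi-likelihood test at an adjusted p of 0.05; 101 genes, no member among them, had an unadjusted p under 0.05, and DESeq2 also called 0. With the experiment as a replicate block edgeR called 4 genes and 0 members. The log2 fold change was -0.018 ± 0.28 (SE) for Pou5f1, -0.029 ± 0.20 for Sox2, 0.034 ± 0.16 for Nanog, 0.0091 ± 0.20 for Sall4 and -0.31 ± 0.33 for Lin28a, all with an adjusted p of 0.999. Leaving out single libraries turned the sign for Pou5f1 (-0.36 to 0.30), Sox2 (-0.22 to 0.16), Nanog (-0.051 to 0.13) and Sall4 (-0.098 to 0.13), and Lin28a ran from -0.63 to -0.031. The 95% intervals of this fit, which leaves the pairing by experiment out, ran from -0.56 to 0.52 for Pou5f1, from -0.28 to 0.35 for Nanog and from -0.95 to 0.34 for Lin28a. With the replicate block the SE was 0.14 for Pou5f1, 0.13 for Nanog and 0.25 for Lin28a. The CPM of the 2 cell numbers overlapped for all 5 members, while 23.3% of the genes tested had no overlap.

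The library from 5000 cells had no replicate and is set beside the mean of the 2 larger libraries of experiment 2 without a test. Pou5f1 stood at 1.07 times that mean, Sox2 at 0.911, Nanog at 0.922, Sall4 at 1.09 and Lin28a at 0.741. Only Lin28a, on 159 counts, was at least 1.2-fold away, as were 34.2% of the 6485 expressed genes, whose median ratio was 0.928.

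The comparison of experiment 2 with experiment 1 asks how well the measurement repeats on another day. No core factor was called, while 1567 of the 12523 genes were (12.5%), 720 of them higher (5.75%) and 847 lower (6.76%); DESeq2 called 1332 and 0 members, and 3216 genes had an unadjusted p under 0.05. The count of genes called depended on single libraries, since it was 803 without experiment 2 with 10000 cells, 869 without experiment 2 with 20000 cells and 1018 without experiment 1 with 10000 cells, so the shares of all genes given beside the lists hold for these 4 libraries. Sox2 came nearest, with a mean of 176 ± 4.94 CPM (SD, n = 2) against 142 ± 6.50 CPM (n = 2), a log2 fold change of 0.31 ± 0.12, an unadjusted p of 0.0175 and an edgeR adjusted p of 0.0982. Lin28a was at 12.8 ± 1.22 against 9.23 ± 1.89 CPM, with a log2 fold change of 0.47 ± 0.25 and an edgeR adjusted p of 0.237. Pou5f1, with 0.028 ± 0.17, Nanog, with -0.086 ± 0.12, and Sall4, with -0.040 ± 0.16, had edgeR adjusted p values of 0.947, 0.714 and 0.917.

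Sox2 and Lin28a were the 2 members whose CPM did not overlap between the experiments in the 4 libraries tested, a property shared by 53.9% of the genes tested. With the library from 5000 cells added to experiment 2, Sox2 still did not overlap and Lin28a did, and 46.3% of expressed genes did not overlap. The 95% interval of the log2 fold change ran from 0.071 to 0.55 for Sox2, from -0.013 to 0.96 for Lin28a, from -0.30 to 0.36 for Pou5f1 and from -0.32 to 0.15 for Nanog.

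**Figure D2:**
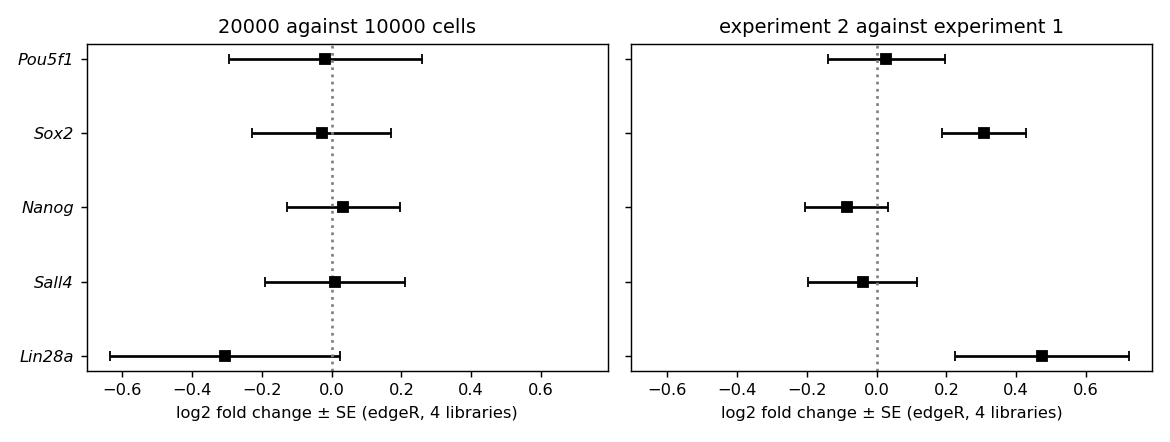
Log2 fold change of each core factor (horizontal axis) between cell numbers (left) and between experiments (right), from edgeR on 4 libraries. Squares are the estimates and bars 1 SE; the estimates for cell number lie between -0.029 and 0.034 except for Lin28a, at -0.31, and those for experiment are above 0 by more than 1 SE for Sox2 and Lin28a.

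For Pou5f1 the change with cell number took opposite directions in the 2 experiments. Between 10000 and 20000 cells its log2(CPM + 1) fell by 0.60 in experiment 1 and was 0.59 higher in experiment 2, so that the 2 changes differed by 1.19. Each change rests on 1 library per cell number, so the difference was not tested. Of the 6485 expressed genes, 22 (0.339%) had a larger difference in either direction, and 27 when CPM were scaled by TMM, edgeR's trimmed mean of M-values; the median was 0.219. The same difference was 0.15 for Sox2, -0.19 for Nanog, -0.37 for Sall4 and 0.20 for Lin28a, and 27.4% to 64.3% of genes had a larger one. The sign of the change was opposite in the 2 experiments for Pou5f1, Sox2, Nanog and Sall4, as for 48.9% of expressed genes.

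**Figure D3:**
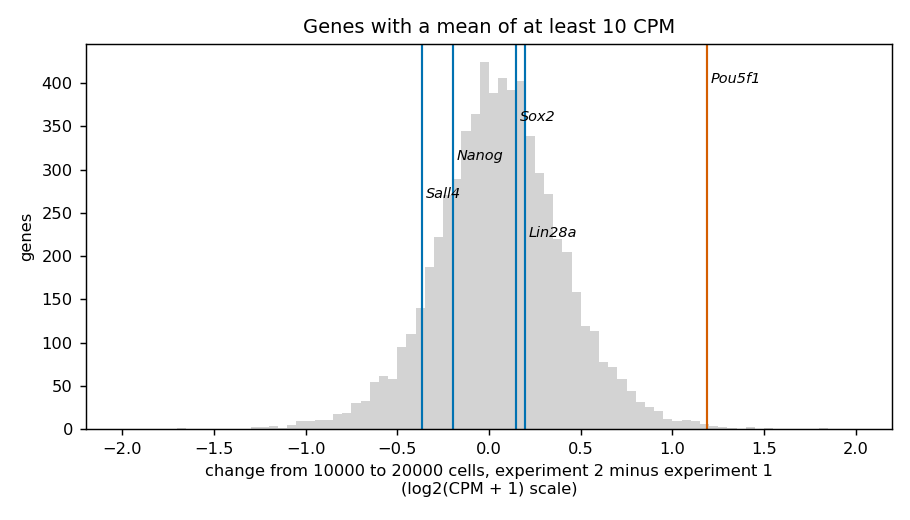
Difference between the experiments in the change from 10000 to 20000 cells, on the log2(CPM + 1) scale (horizontal axis), for the 6485 expressed genes (grey histogram, number of genes on the vertical axis). Vertical lines mark the core factors; Pou5f1 lies at 1.19, in the far right tail, and the other members lie between -0.37 and 0.20.

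The genes whose log2(CPM + 1) followed each core factor most closely over the 5 libraries were found by Pearson's r among the expressed genes. For Pou5f1 they were Ppp1r12c (r = 0.991), Hax1 (0.990) and Clta (0.987), and for Sox2 they were Tcf25 (0.9997), Gtf2i (0.998) and Atp6v1e1 (0.997). For Nanog they were Ndc1 (0.998), Cdipt (0.997) and Dnajc5 (0.997), for Sall4 Tmem256 (0.997), Plxna1 (0.992) and Pkp4 (0.986), and for Lin28a Tmem184c (0.9999), Eif3a (0.996) and Arl6 (0.993). No member was among the 3 genes nearest to another member. With 5 points and 6485 genes such values describe these libraries only.

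A list of other pluripotency regulators was counted in the same comparison of experiments. It was chosen with earlier results of these data known, so its calls beside the share of all genes are a description. Of 30 listed, all tested, 8 rose in experiment 2, 2 fell and the rest did not pass the test, against 5.75% and 6.76% of all genes, with a median log2 fold change of 0.089 against 0.0010 over all genes tested. Fbxo15, an F-box gene known as an OCT4 and SOX2 target, rose from 23.3 ± 1.11 to 83.7 ± 11.1 CPM (SD, n = 2 each), a log2 fold change of 1.84 ± 0.16 (edgeR adjusted p = 1.36e-08). Spp1, which encodes the secreted protein osteopontin, rose from 137 ± 13.5 to 373 ± 13.7 CPM (1.45 ± 0.12), the oncogene Mycn from 23.6 ± 2.87 to 62.6 ± 3.26 CPM (1.41 ± 0.16) and Gdf3, a TGF-beta family ligand, from 58.9 ± 1.51 to 122 ± 11.1 CPM (1.05 ± 0.13). In the library from 5000 cells of experiment 2 these 4 genes stood at 63.3, 364, 62.7 and 119 CPM. The germline and naive-state gene Dppa3 rose by 3.17 on the log2 scale, from a mean of 1.04 CPM. The naive-state factors Klf2 (0.34), Klf4 (0.42) and Zfp42 (0.38) passed narrowly and lost the call under 5, 5 and 4 of 10 alternatives. Other naive-state factors on the list did not pass the test: Tbx3 (-0.53), Nr5a2 (-0.51), Klf5 (-0.20), Esrrb (0.099), Prdm14 (0.12) and Tfcp2l1 (0.25). Myc fell by 0.98 and Utf1, a chromatin-bound stem cell gene, fell by 0.57 on the log2 scale. In the comparison of cell numbers 0 of the 30 were called.

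Partners and relatives of the members were counted in the same way, against the same 5.75% of all genes higher and 6.76% lower. Of 13 NuRD subunits, the complex that SALL4 recruits, 1 rose in experiment 2, Gatad2a by 0.47 ± 0.13, and its call was lost under 4 of 10 alternatives (edgeR adjusted p up to 0.194); the median of the list was 0.19, and 1 of 13 is near the share of all genes. Of 15 genes around LIN28A and let-7, 2 rose and 1 fell, with a median of 0.12. The G1 cyclins Ccnd1 (1.05 ± 0.14) and Ccnd2 (1.15 ± 0.33) rose, Ccnd2 from 4.23 ± 1.54 CPM and not under 3 of 10 alternatives, and the cell-cycle factor E2f2 fell by 0.91, a call that did not hold without the library from 10000 cells of experiment 2. Of 17 POU, SOX and SALL family relatives, not all of which could be tested, 2 rose. These were Sall1, from 24.2 ± 1.11 to 59.4 ± 6.93 CPM (1.296 ± 0.16), and Sox4 (1.26 ± 0.32), at 4.03 ± 0.45 to 9.64 ± 3.60 CPM. The fitted change recorded for Sox3, 0.35, runs against its CPM, 0.526 in experiment 1 and 0.0245 in experiment 2. That value was not used, and no median of this list is given. The call of Sox4 was lost without the library from 20000 cells of experiment 2 (edgeR adjusted p = 0.314), which left 1 call on that list. No gene of these 3 lists was called between cell numbers.

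A few markers of other cell types were called between the experiments. Of the 33 entries of the 5 marker lists 16 could be tested, and 2 rose and 2 fell, against 5.75% and 6.76% of all genes, with no trophoblast marker among them. Calls on the marker lists were not checked under the alternatives used for the other lists. The primitive endoderm factor Gata6 fell by 3.81 ± 1.01 on the log2 scale from a mean of 2.34 CPM. Thy1, a surface protein of fibroblasts and other cells, fell by 2.19 from 31.5 CPM. The neural factor Pax6 rose, from 0.0728 to 5.24 CPM, and was at 5.55 CPM in the library from 5000 cells of experiment 2. Zic2, from the formative and primed list, rose from 0.754 to 4.37 CPM, but stood at 0.895 CPM in the library from 5000 cells, and the other 3 tested genes of that list, Otx2 (-0.80), Dnmt3b (-0.23) and Pou3f1 (-0.0070), did not pass the test. Pou3f1 and Sox1 stand on a marker list and on the list of POU, SOX and SALL relatives. The sum of the 8 neural and mesendoderm markers was 4.81 and 6.89 CPM in experiment 1 and 12.1 to 16.6 CPM in experiment 2, and that of the 6 primitive endoderm markers was 7.23 and 7.28 CPM against 1.81 to 2.20 CPM. Their part in the values of Sox2, Lin28a or the listed regulators was not tested.

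The open chromatin around the core factors was described next, from the 8 peak lists. Peaks of different lists that overlapped or touched were merged into 107 regions, 24 at Pou5f1, 19 at Sox2, 20 at Nanog, 27 at Sall4 and 17 at Lin28a. Of these, 6 were in all 8 lists, 5 in 7 lists and 58 in a single list, 44 of them in the Omni-ATAC list from 50000 cells alone. In the genome 4.84% of merged regions were in all 8 lists and 55.1% in 1. The 6 regions found in every list belonged to Pou5f1 (3), Nanog (2) and Sox2 (1). At least 1 such region lay within the gene and 50 kb for 68.3% of expressed genes, at least 2 for 31.1% and at least 3 for 12.2%, so Sall4 and Lin28a belonged to the remainder. There were 33 regions made of 9 bp peaks only.

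**Figure D4:**
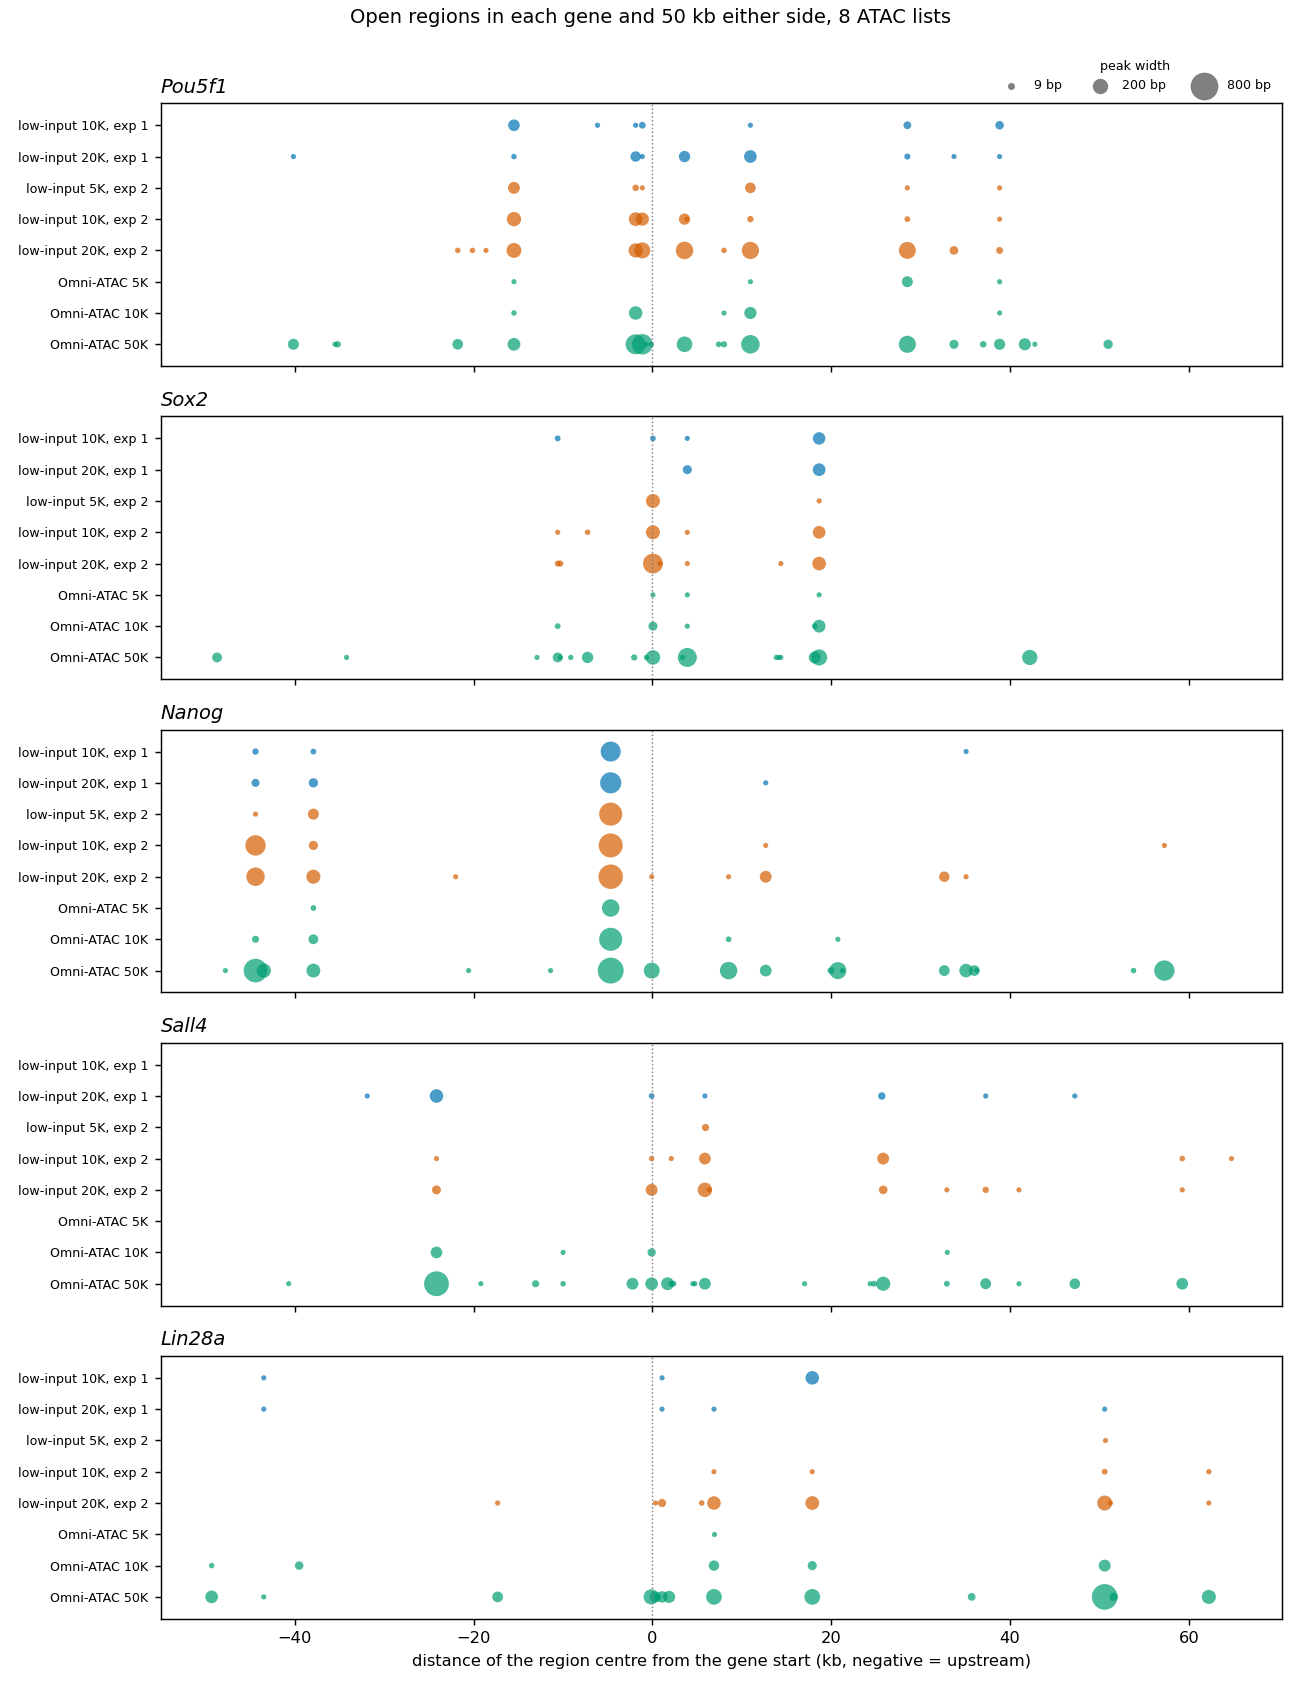
Open regions at each core factor: the horizontal axis is the distance of a region's centre from the gene start in kb, negative upstream, and each row is 1 of the 8 ATAC lists. Dot size grows with the peak's width; the Nanog region at -4.7 kb is present and wide in all 8 lists, while the start of Nanog carries a peak in 2.

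At Nanog the constant feature was upstream of the promoter. The region centred at -4.7 kb (chr6:122702422-122703230) was in all 8 lists. Its peak was 353, 630 and 802 bp wide in the Omni-ATAC lists from 5000, 10000 and 50000 cells, 468 and 525 bp in experiment 1 with 10000 and 20000 cells, and 630, 685 and 710 bp in experiment 2 with 5000, 10000 and 20000 cells. Further upstream, the region at -37.9 kb (chr6:122669464-122669687) was in all 8 lists, and that at -44.4 kb (chr6:122662757-122663452) was in 7, all but Omni-ATAC from 5000 cells. None of these 3 lay in a gene of the table. At the promoter printed above, the region chr6:122707272-122707561 was in 2 lists, 290 bp wide in Omni-ATAC from 50000 cells and 9 bp wide in experiment 2 with 20000 cells. The octamer core and the SOX letters of that promoter were covered by a peak in the first of these lists alone.

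Pou5f1 showed a similar layout, with a pair of regions shortly upstream and little at the start itself. The region at -1.9 kb (chr17:35503921-35504399) was in 7 lists, all but Omni-ATAC from 5000 cells, with peaks of 9 to 469 bp. The region at -1.1 kb (chr17:35504644-35505167) was in all 5 low-input lists and in Omni-ATAC from 50000 cells, and in neither of the smaller Omni-ATAC lists; its peaks were 32 and 9 bp wide in experiment 1 with 10000 and 20000 cells, 9, 191 and 292 bp in experiment 2 with 5000, 10000 and 20000 cells, and 492 bp in Omni-ATAC. Within 250 bp before the start, printed above, only Omni-ATAC from 50000 cells had a peak, of 9 bp, and it did not cover the GGGCGG match. A region inside the gene at 3.6 kb (chr17:35509447-35509805) was in 4 lists.

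The 3 regions at the Pou5f1 locus found in all 8 lists lay further out. One was at -15.5 kb (chr17:35490418-35490682), outside any gene of the table, with peaks of 9 to 249 bp. Another, at 11.0 kb (chr17:35516750-35517237), lay at the starts of the neighbours Cchcr1 and Tcf19. The third, at 38.8 kb (chr17:35544773-35544953), was outside any gene. A region at 28.5 kb in the body of Psors1c2 (chr17:35534275-35534816) was in 7 lists.

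Sox2, by contrast with both, had a peak close to its start in most lists. The merged region that spans its start (chr3:34649820-34650295) was in 7 lists, all but experiment 1 with 20000 cells, and in 4 of them the peak covered the start base itself. Its peak was 17 bp wide in experiment 1 with 10000 cells, 217, 217 and 461 bp in experiment 2 with 5000, 10000 and 20000 cells, and 9, 77 and 236 bp in Omni-ATAC. The octamer core of the Sox2 promoter lay under a peak in 5 lists, the 3 of experiment 2 and Omni-ATAC from 10000 and 50000 cells. Downstream, the region at 3.9 kb (chr3:34653692-34654111) was in 7 lists, all but experiment 2 with 5000 cells, and that at 18.6 kb (chr3:34668496-34668790) in all 8. At 3.9 kb the peak was 420 bp wide in Omni-ATAC from 50000 cells, 78 bp in experiment 1 with 20000 cells and 9 bp in the other lists that held it. Peaks at 18.6 kb were 9 to 295 bp wide. Upstream, the region at -10.6 kb (chr3:34639355-34639451), within 1000 bp of the start of the microRNA gene Mir1897, was in 5. All these regions lie inside Sox2ot.

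Sall4 and Lin28a had no region in more than 6 lists. At Sall4, 3 regions were in 5 lists each: over the start (chr2:168767198-168767371), in the gene at 5.9 kb (chr2:168761212-168761446) and upstream at -24.1 kb (chr2:168790982-168791713), where the peak was 732 bp wide in Omni-ATAC from 50000 cells and 201 bp in experiment 1 with 20000 cells. Omni-ATAC from 5000 cells and experiment 1 with 10000 cells had 0 peaks at the whole Sall4 locus, while the 10000 cells of experiment 2 gave 7. At Lin28a the region inside the gene at 6.9 kb (chr4:134011793-134012071) was in 6 lists and one at 1.1 kb (chr4:134017669-134017804) in 4. The regions at 17.9 kb and 50.6 kb, in 5 and 6 lists, lay at the starts of the neighbouring genes Dhdds and Hmgn2. The stretch just before the Lin28a start (chr4:134018821-134019081) had a peak, of 261 bp, in Omni-ATAC from 50000 cells only.

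A promoter peak, meaning one within 1000 bp of the start, was thus found for Sox2 in 7 of 8 lists, for Sall4 in 5, for Pou5f1 in 4 and for Nanog and Lin28a in 2 each. Among expressed genes, 51.6% had one in at least 7 lists, 71.7% in at least 5 and 79.7% in at least 4, while 13.5% had one in at most 2; over all genes of the table the last share was 52.4%. For Pou5f1 the count rested on the region at -1.1 kb, and it was 1 list with a limit of 500 bp and 7 lists with 2500 bp. Lin28a rose to 4 lists with 2500 bp. With peaks of at least 50 bp alone the counts were 5 for Sox2, 3 each for Pou5f1 and Sall4 and 1 each for Nanog and Lin28a. Of the 19 regions in at least 5 lists, 7 lay upstream of a core factor with their nearest edge more than 1000 bp from its start.

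Lists from more cells held more peaks at the 5 loci in sum, and more peaks as a whole. The 5 loci together held 18 and 26 peaks in experiment 1 with 10000 and 20000 cells, 13, 31 and 49 in experiment 2 with 5000, 10000 and 20000 cells, and 10, 24 and 93 in Omni-ATAC with 5000, 10000 and 50000 cells. In all 7 pairs of lists within a series the list from more cells had more peaks (exact permutation test of cell numbers within series, two-sided, p = 0.0278, the smallest that its 72 arrangements allow, and 0.0556 adjusted over 2 tests). Per 10000 peaks of the list the 5 loci held 9.54 and 9.62, then 6.98, 10.4 and 9.90, and then 11.0, 7.69 and 9.74 in the same order, and 4 of 7 pairs rose (exact p = 1.0). A growing share of the list at these loci was therefore not detectable.

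**Figure D5:**
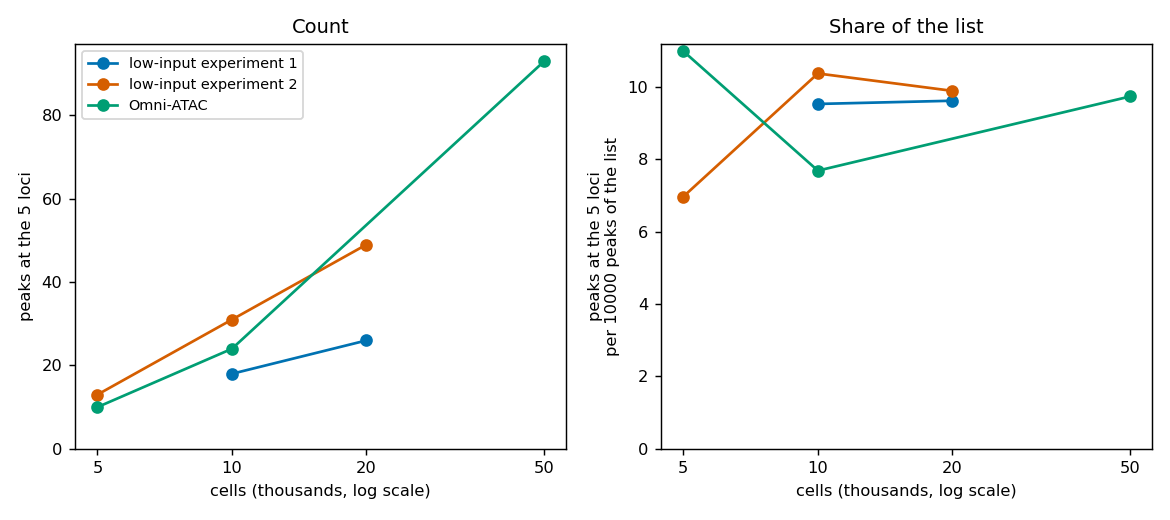
Number of peaks at the 5 loci (left, vertical axis) and the same per 10000 peaks of the list (right) against cell number on a log axis, for the 3 series of ATAC lists, 1 list per point. The counts grow with cell number in each series, between 10 and 93, and the shares lie between 6.98 and 11.0 in no common order.

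The single loci did not all follow the sum: from 10000 to 20000 cells of experiment 1 Sox2 went from 4 peaks to 2 and Nanog stayed at 4. Pou5f1 had 4 to 20 peaks and stood at percentile 81.8 to 88.9 of expressed genes in every list except Omni-ATAC from 10000 cells, where it stood at 48.7. Sox2 had 2 to 18 peaks, Nanog 2 to 19, Sall4 0 to 22 and Lin28a 1 to 14. Sall4 spanned the widest range of ranks, from percentile 0 in 2 lists to 93.0 in Omni-ATAC from 50000 cells.

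At equal cell number the low-input and Omni-ATAC lists shared part of their regions at the 5 loci. With 5000 cells the low-input list had 13 regions and the Omni-ATAC list 10, of which 8 were shared, 61.5% of the first and 80.0% of the second. With 10000 cells Omni-ATAC had 24; experiment 1 had 18 and shared 12 (66.7% of its own and 50.0% of Omni-ATAC's), and experiment 2 had 29 and shared 16 (55.2% and 66.7%). Between the experiments the low-input lists shared 14 regions with 10000 cells, 77.8% of 18 and 48.3% of 29, and 21 with 20000 cells, 80.8% of 26 and 45.7% of 46. The protocols were not tested against each other, since Omni-ATAC was run once at each cell number. Of the 107 regions, 10 were in all 5 low-input lists, 12 were in no Omni-ATAC list and 19 overlapped the authors' unified list. The same shares and counts were not worked out over the genome. They therefore describe the 5 loci only and do not tell whether these loci differ from others.

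The mRNA and the peaks of the same genes can be set side by side. Nanog, with the steadiest mRNA on the log scale, had a promoter peak in 2 lists and an upstream region in all 8. Pou5f1, whose mRNA moved by 1.55-fold between libraries, had its -1.1 kb region in every low-input list, including both that came from the same cells as its lowest mRNA values. Sox2 had no promoter peak in the 20000 cells of experiment 1, the library in which its mRNA was lowest, and had one in the other 4. These are single libraries, and the relation was not tested.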

How the data were processed

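The authors deposited 1 table of whole-number gene counts for 5 mRNA libraries, and open regions as peak intervals, 1 list per ATAC library and 1 unified list, on mm10. The submitters' processing notes name cutadapt, Bowtie2 2.1.0, SAMtools 1.3.1, Picard, bedtools 2.24.0, MACS2 2.1.1, STAR 2.5, featureCounts and Subread 1.5.0-p1, without settings. The strand setting, the handling of multiply matching reads and the peak threshold are not given in the sources used here.

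From the deposited counts, CPM were computed on library totals (13727122 to 20426252), with 95% Wilson intervals. A count of 0 allows up to 3 counts (0.147 to 0.219 CPM). Tests used edgeR 4.0.16 (TMM, filterByExpr, glmQLFit, glmQLFTest; R 4.3.3) on the 4 libraries from 10000 and 20000 cells, with Benjamini-Hochberg adjustment over 12523 genes and a threshold of 0.05; the biological coefficient of variation was 32.0% between cell numbers and 17.1% between experiments. The log scale used a pseudocount of 1. Experiments took place on different days per the series' design text, so their numbers pair libraries; over genes, the change between experiments with 10000 cells correlated with that at 20000 (r = 0.685), and genes are not independent replicates. No pair of libraries was a duplicate (smallest chi-square per gene 10.7). Steps were tested on simulated data.

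Interval starts were converted to 1-based positions. Peaks were merged where they overlapped or touched, and distances run from the 5′ end of the gene row to the region's centre. Of 24470 gene IDs, 24467 matched RefSeq. Trends with cell number used exact permutation within the 3 series. Python 3.11.15, pandas 2.3.3, numpy 2.4.6, scipy 1.17.1 and matplotlib 3.10.9 were used.

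The members, lists and tests were chosen with earlier results of these data known. Named genes are the members, the 4 genes of each list with the largest change among those called with a mean of at least 10 CPM, other called genes of the lists, and the 3 genes most like each member. Called NuRD subunits and markers were added to these. Alternatives were DESeq2 1.42.0, scaling by RLE or by library totals, no low-count filter, a replicate block, cell number as a term, the library from 5000 cells, each library from 10000 and 20000 low-input cells left out in turn, the peak trends without Omni-ATAC from 50000 cells, other windows and peaks of at least 50 bp. TMM scaling and a pseudocount of 0.1 for the difference between experiments were added after the data were seen. So were the calls of the gene lists other than the markers under these alternatives, and the adjoining octamer and SOX letters.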

Additional observations from a re-analysis of the deposited data

Results flagged for a closer look

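For 4 members the change from 10000 to 20000 cells ran in opposite directions in experiments 1 and 2, on the log2(CPM + 1) scale. The change in experiment 2 minus that in experiment 1 was 1.19 for Pou5f1, 0.15 for Sox2, -0.19 for Nanog and -0.37 for Sall4. Each change rests on 1 library per cell number and experiment, so these differences were not tested, and 48.9% of genes averaging 10 CPM or more also had opposite signs. For Pou5f1 the difference came to 1.15 on TMM-scaled CPM and to 1.197 on a pseudocount of 0.1.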

How the results depend on the processing

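No member was called under any alternative run for either comparison of mRNA. Between cell numbers the count of genes called in the whole table was 2 with no filter on low counts and 4 with the experiment as a replicate block, against 0. Between experiments it ranged from 803 to 1817 when 1 library was left out, against 1567: 803 without experiment 2 with 10000 cells, 869 without experiment 2 with 20000 cells and 1018 without experiment 1 with 10000 cells. The cause was not tested; a group then holds 1 library, assumed to vary like the others.

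With 1 library left out, the log2 fold change between cell numbers ran from -0.36 to 0.30 for Pou5f1, from -0.22 to 0.16 for Sox2, from -0.051 to 0.13 for Nanog, from -0.098 to 0.13 for Sall4 and from -0.63 to -0.031 for Lin28a, lowest without experiment 2 with 20000 cells and nearest 0 without experiment 1 with 20000 cells. Between experiments it ran from -0.28 to 0.36 for Pou5f1, from -0.16 to 0.0056 for Nanog, from -0.14 to 0.087 for Sall4 and from 0.29 (without experiment 1 with 20000 cells) to 0.70 for Lin28a, and it was 0.044 for Sall4 with 5 libraries. Sox2 and Lin28a kept their sign between experiments and Lin28a between cell numbers. With the replicate block the change between cell numbers was -0.022 ± 0.14 for Pou5f1 and the block changed no member's call.

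All 7 pairs rose in peak count with windows of 10 kb and 100 kb, with peaks of at least 50 bp and by covered length. Without Omni-ATAC from 50000 cells 5 of 5 pairs rose (exact p = 0.0833, the smallest possible), and leaving out 1 low-input list from 10000 or 20000 cells left 5 to 6 pairs, all rising, too few for a p under 0.05. For the share of the list, 3 of 7 pairs rose with 10 kb, 3 with 100 kb, 3 with peaks of at least 50 bp and 1 by covered length. Unknown ATAC depth limits what an absent peak means.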
